A study of Mus musculus with 16 samples.

Results

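The mevalonate and sterol pathway was examined in epididymal white fat through 8 genes: Hmgcs1, Sqle, Idi1, Fdps, Fdft1, Lss, Dhcr7 and Insig1. All probes carrying these symbols were taken from a single-colour Illumina bead array of 25697 probes. The array annotation used here gave 11 probes to 7 of the 8 genes, and Fdft1 was not analysed here. Of those, 9 probes of 6 genes passed the filter on dim probes. Fat came from mice aged 4 to 5 months, all made obese by 10 weeks of high-fat diet. The sample titles name a mixed c57b6/sv129 background for the wild-type mice and name none for the FGF21 KO mice. The groups were FGF21 KO mice (Fgf21-KO) given rosiglitazone, Fgf21-KO mice given vehicle, wild-type (WT) mice given rosiglitazone and WT mice given vehicle. Rosiglitazone, an agonist of the nuclear receptor PPARG, was given at 10 mg/kg during the last 2 weeks. Each group had 2 pools of 2 mice, and each pool was run on 2 arrays that were averaged, so n = 2 pools per group throughout.

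Cells make cholesterol from acetyl-CoA by way of mevalonate, isoprenoid diphosphates, squalene and lanosterol. When sterol in the endoplasmic reticulum is low, SCAP carries the precursor of the transcription factor SREBP2 to the Golgi for cleavage, and the freed factor raises transcription of most enzymes of the route. INSIG1 holds SCAP back when sterol is plentiful, and its own gene is a target of the same factor. Fat cells store a large amount of unesterified cholesterol beside their triglyceride, much of it taken up from lipoproteins rather than made in place.

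Promoter windows of 250 bases before and 50 after an annotated start were taken from RefSeq (GRCm38.p6). They are shown because the members are known targets of one factor. Of the 8 genes, 5 had an entry, with 7 windows in all; Sqle, Fdps and Fdft1 had none. The windows below are on the plus strand, run 5′ to 3′, and lie at chr13:119690101-119690400 for Hmgcs1, chr13:8885356-8885655 for Idi1, chr10:76531355-76531654 for Lss, chr7:143829964-143830263 for one of 3 Dhcr7 starts and chr5:28071162-28071461 for Insig1. Capitals mark CACNCCAC (a form of the sterol response element), CACGTG (an E-box) and CCAAT (the box bound by NF-Y), each read on both strands, so that CCAAT on the other strand appears as ATTGG.
Hmgcs1: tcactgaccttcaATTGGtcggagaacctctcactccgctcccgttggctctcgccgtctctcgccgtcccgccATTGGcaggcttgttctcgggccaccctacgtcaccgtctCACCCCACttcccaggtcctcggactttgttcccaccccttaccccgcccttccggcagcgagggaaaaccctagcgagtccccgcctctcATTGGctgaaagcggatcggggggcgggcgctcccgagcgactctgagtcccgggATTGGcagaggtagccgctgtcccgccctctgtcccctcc
Idi1: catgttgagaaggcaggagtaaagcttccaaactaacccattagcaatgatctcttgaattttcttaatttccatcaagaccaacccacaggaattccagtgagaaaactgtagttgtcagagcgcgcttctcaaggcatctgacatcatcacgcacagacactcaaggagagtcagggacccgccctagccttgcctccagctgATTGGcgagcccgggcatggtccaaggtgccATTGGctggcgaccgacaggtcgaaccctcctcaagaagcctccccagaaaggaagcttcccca
Lss: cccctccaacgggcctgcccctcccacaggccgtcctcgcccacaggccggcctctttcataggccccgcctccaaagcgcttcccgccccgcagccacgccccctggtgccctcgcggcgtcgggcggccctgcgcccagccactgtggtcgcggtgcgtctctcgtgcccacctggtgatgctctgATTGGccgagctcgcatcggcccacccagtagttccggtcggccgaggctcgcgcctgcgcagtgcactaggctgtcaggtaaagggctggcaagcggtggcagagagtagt
Dhcr7: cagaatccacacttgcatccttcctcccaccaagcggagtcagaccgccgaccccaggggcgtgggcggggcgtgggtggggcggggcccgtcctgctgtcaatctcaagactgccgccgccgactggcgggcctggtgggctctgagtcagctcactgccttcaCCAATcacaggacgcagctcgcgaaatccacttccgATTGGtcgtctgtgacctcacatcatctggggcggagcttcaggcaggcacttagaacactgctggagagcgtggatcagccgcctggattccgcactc
Insig1: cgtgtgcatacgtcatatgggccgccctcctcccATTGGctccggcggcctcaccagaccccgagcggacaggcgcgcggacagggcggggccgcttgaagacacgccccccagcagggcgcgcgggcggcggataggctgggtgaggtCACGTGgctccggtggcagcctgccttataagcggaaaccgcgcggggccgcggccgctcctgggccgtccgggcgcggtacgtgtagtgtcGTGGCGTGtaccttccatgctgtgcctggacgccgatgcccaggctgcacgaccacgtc

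The sterol-type element was found in the windows of 2 genes. In Hmgcs1, the enzyme that condenses acetyl-CoA with acetoacetyl-CoA, its first base was at position -136 from the start, and the window held 4 CCAAT boxes. In Insig1 it was on the minus strand at position -9, with an E-box at position -101. A CCAAT box lay in at least 1 window of 5 of 5 genes and in 5 of 7 windows, while the E-box was also in a Dhcr7 window not printed. Among 32851 windows of the same length, 6.24% held the sterol-type element, 7.15% the E-box and 37.4% a CCAAT box, and 1.06% held 4 or more CCAAT boxes. The motifs do not overlap in the printed windows, and they were chosen with the sequences in view.

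The tissue checks bear on every value below. On its single probe Fgf21 differed by -2.34 log2 units between Fgf21-KO and WT fat averaged over treatments (SE 0.268, limma, adjusted p = 0.0684), and no Fgf21-KO pool overlapped a WT pool. Of 4 arrays, 1 detected the probe in each Fgf21-KO group and 4 did in each WT group, so the size of the difference is limited by background. Where that probe lies relative to the deleted part is not given in the sources used here. All 7 adipocyte markers tested, of 8 listed, among them Adipoq, Plin1 and Lep, were detected in every pool. The median signal of an array ran from 144.9 to 178.8 on Fgf21-KO arrays and from 174.4 to 192.3 on WT arrays. On each array 47.6% to 51% of probes were detected. Each signal averaged 39.4 to 40.7 beads on Fgf21-KO arrays and 36 to 38.9 beads on WT arrays, and bead number and genotype cannot be told apart.

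WT rosiglitazone replicate 1 stood apart from the other 7 pools over all tested probes, and was singled out after its values were seen. It scored 68.5 on the first principal component of all tested probes, which held 48.2% of the variance, against -16.8 to -0.298 for the others. In that pool 23.1% of the 2472 genes with several probes had probes that disagreed by over 1 log2 unit, against 0.162% to 1.5% in the others. The median of 7 smooth muscle markers was 2.37 log2 units above the other pools, that of 6 epithelial markers was 2 units above them, and that of 6 macrophage markers was -0.46. Smooth muscle markers summed to a signal of 81865 there, against 13696 to 23439 in the other pools, and macrophage markers to 10686 against 16386 to 20841. Their part in the results was not tested, and the members' differences that moved most without this pool are also given without it. Elsewhere, 5 liver markers were 3.45 above the other pools in Fgf21-KO vehicle replicate 2 (summed signal 19828, against 1685 to 5277 in the rest, with Alb detected on 0 arrays), and 4 markers of ciliated cells were 2.56 above in WT rosiglitazone replicate 2. Mesothelial markers deviated by -1.19 in Fgf21-KO rosiglitazone replicate 2 (summed signal 2047, against 3904 to 5802 in the rest). Epithelial markers deviated by -0.95 to -0.52 in the 4 Fgf21-KO pools and by 0.83 in WT rosiglitazone replicate 2. In WT vehicle replicates 1 and 2 they deviated by -0.53 and -0.02. The part of these markers in the results was not tested. At most 2 of 6 genes of steroid-making cells were detected in any pool.

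The first enzyme, Hmgcs1, was among the brightest probes of the array and scarcely varied. Its levels (log2 signal after background correction and quantile normalization, as for all levels below) were 15.43 and 15.6 in Fgf21-KO rosiglitazone pools, 15.56 and 15.46 in Fgf21-KO vehicle pools, 15.41 and 15.51 in WT rosiglitazone pools, and 15.54 and 15.47 in WT vehicle pools. The groups overlapped, with no pool standing out. Signals of 37560 to 53489 placed the probe (ILMN_2654952) between rank 19 and 32 of the array, at 62.8% to 78.6% of the brightest signal. The SD over the 8 pools, 0.067, was no larger than the median gap between the 2 arrays of a pool, 0.079. Whether it was near saturation was not tested. The 95% interval of its genotype difference averaged over treatments ran from -0.19 to 0.25.

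Idi1, which converts isopentenyl diphosphate to dimethylallyl diphosphate, could not be measured: its probe (ILMN_2590923) was detected on 1 of 16 arrays, a Fgf21-KO rosiglitazone array, at signals of 121 to 178. Fdps, which joins these units into farnesyl diphosphate, was well above background. It read 11.52 and 11.14 in Fgf21-KO rosiglitazone pools, 11.24 and 11.14 in Fgf21-KO vehicle pools, 11.57 and 11.02 in WT rosiglitazone pools, and 10.68 and 10.82 in WT vehicle pools (ILMN_1225730). Both WT vehicle pools lay below every other pool, and the 2 pools within each rosiglitazone group were far apart.

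Sqle, squalene epoxidase, the first oxygen-requiring step, had 2 kept probes. On the brighter (ILMN_2737163) levels were 9.91 and 9.52 in Fgf21-KO rosiglitazone pools, 9.84 and 9.66 in Fgf21-KO vehicle pools, 9.41 and 9.59 in WT rosiglitazone pools, and 9.07 and 9.05 in WT vehicle pools. Again the WT vehicle pools were the lowest, by a clear margin. The dimmer probe (ILMN_2600348) gave 7.69 and 7.77 in Fgf21-KO rosiglitazone pools, 7.74 and 7.66 in Fgf21-KO vehicle pools, 5.59 and 7.64 in WT rosiglitazone pools, and 7.13 and 7.14 in WT vehicle pools. On both probes the WT vehicle pools were the lowest of the other 7, and the probes parted in WT rosiglitazone replicate 1, where the dimmer one was far below all other pools.

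Lss, which closes squalene epoxide into lanosterol, read 9.64 and 9.49 in Fgf21-KO rosiglitazone pools, 9.43 and 9.17 in Fgf21-KO vehicle pools, 9.55 and 8.99 in WT rosiglitazone pools, and 9 and 8.63 in WT vehicle pools (ILMN_2614161). Both Fgf21-KO groups lay above WT vehicle, and the WT rosiglitazone pools spanned most of the range. Dhcr7, which reduces 7-dehydrocholesterol to cholesterol in the last step, was dimmer. Its levels were 7.62 and 7.49 in Fgf21-KO rosiglitazone pools, 7.37 and 7.32 in Fgf21-KO vehicle pools, 7.1 and 6.91 in WT rosiglitazone pools, and 7.07 and 6.81 in WT vehicle pools (ILMN_2660471). All 4 Fgf21-KO pools were above all 4 WT pools, and the 2 WT groups overlapped.

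Insig1, the sterol sensor that retains SCAP, had 3 kept probes. The brightest (ILMN_1245272) read 10.41 and 10.54 in Fgf21-KO rosiglitazone pools, 10.16 and 10 in Fgf21-KO vehicle pools, 8.55 and 10.18 in WT rosiglitazone pools, and 9.85 and 9.71 in WT vehicle pools. ILMN_2606693 read 10.50 and 10.51 in Fgf21-KO rosiglitazone pools, 10.21 and 9.80 in Fgf21-KO vehicle pools, 8.41 and 9.98 in WT rosiglitazone pools, and 9.71 and 9.51 in WT vehicle pools. On ILMN_2895388 the levels were 9.23 and 9.39 in Fgf21-KO rosiglitazone pools, 9.48 and 9.07 in Fgf21-KO vehicle pools, 8.04 and 9.35 in WT rosiglitazone pools, and 9.24 and 8.86 in WT vehicle pools. All 3 probes placed WT rosiglitazone replicate 1 lowest, by a wide margin, and the first 2 placed both Fgf21-KO rosiglitazone pools highest. The remaining probe (ILMN_2620965) was detected on 0 of 16 arrays.

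**Figure D1:**
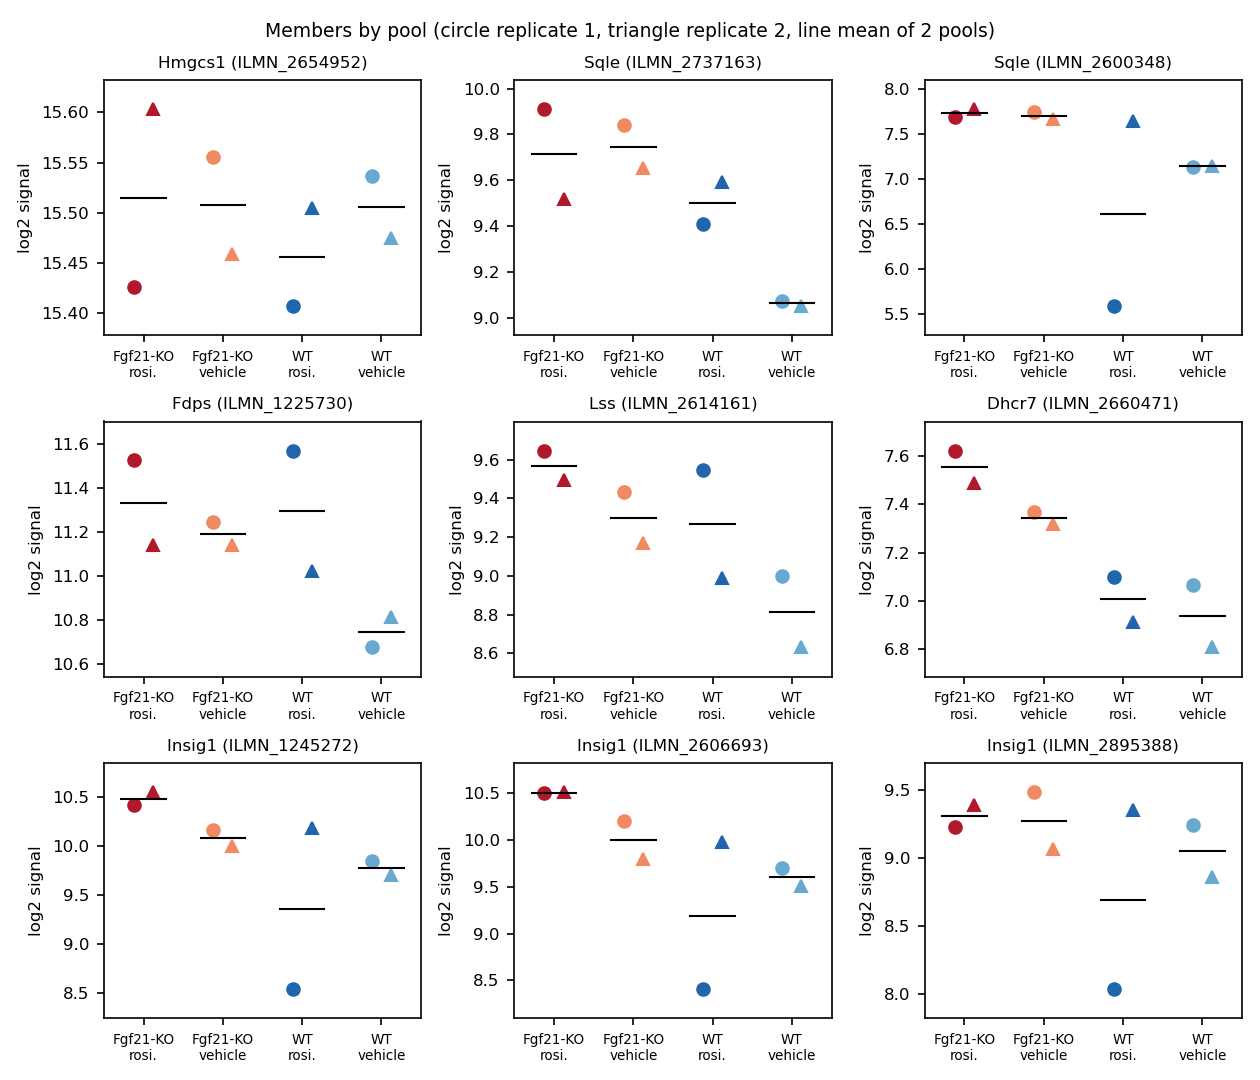
Log2 signal of the 9 kept member probes, one panel per probe, with the 4 groups along the x axis; circles are replicate 1, triangles replicate 2 and lines the mean of 2 pools, and the y axes differ. Dhcr7 shows all 4 Fgf21-KO pools above all 4 WT pools, and the dimmer Sqle probe and the 3 Insig1 probes show WT rosiglitazone replicate 1 far below its partner.

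Under vehicle, the members' levels were above those of WT fat in Fgf21-KO fat, Hmgcs1 apart, and no member passed the test. With each gene stood for by its brightest probe, 6 of 6 had a difference above 0, with a median of 0.43 log2 units, against -0.01 over all tested probes, of which 49% were above 0. In 5 of 6 both Fgf21-KO pools lay above both WT pools, against 20.4% of all probes. The largest was Sqle, at 0.69 (SE 0.173, 1.61-fold, limma, adjusted p = 0.737), followed by Lss at 0.49 (SE 0.232), Fdps at 0.45 (SE 0.221), Dhcr7 at 0.41 (SE 0.151) and Insig1 at 0.30 (SE 0.464). Hmgcs1 differed by 0.001 (SE 0.133). In limma's test 0 of 9 member probes had an adjusted p of 0.05 or less, as did 0 of the 13759 probes tested (0%), and 2 of 9 had an unadjusted p under 0.05, all higher, against 2.33% of all probes in that direction. Without WT rosiglitazone replicate 1, which changes only the shared spread here, 6 of 9 had an unadjusted p under 0.05 (4.72% of all probes), 9 of 9 were above 0 (49%) and 0 passed (0%). In bulk tissue, fewer cells of a type and less RNA per cell cannot be told apart.

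Averaged over treatments, the difference between genotypes was clearest for Dhcr7, at 0.48 (SE 0.107, 1.39-fold, limma, adjusted p = 0.154, higher in 4 of 4 pools). Before background correction and normalization, the mean Dhcr7 signal under vehicle was 255.34 in Fgf21-KO and 261.12 in WT fat. Its difference under vehicle thus appeared only after those steps, and their part in it was not tested. Insig1 ILMN_2895388 also had a lower vehicle mean before those steps, 675.7 in Fgf21-KO against 705.87 in WT fat. So did Hmgcs1, at 44517 against 49074. The other kept member probes were already higher in Fgf21-KO, among them the brighter Sqle probe at 882.57 against 699.8. On average over treatments the brighter Sqle probe differed by 0.45 (SE 0.122, limma, adjusted p = 0.21), Lss by 0.39 (SE 0.164, adjusted p = 0.354) and Fdps by 0.24 (SE 0.156, adjusted p = 0.489). Insig1 differed by 0.71 (SE 0.328), 0.85 (SE 0.325) and 0.42 (SE 0.289) on its 3 probes, and the dimmer Sqle probe by 0.84 (SE 0.403), each with a spread widened by one pool. The median was 0.42 and 6 of 6 genes were above 0, against a median of 0 and 49.9% of all probes. By limma's adjusted p, 0 of 9 member probes passed, against 3 of all probes (0.0218%), and 4 of 9 had an unadjusted p under 0.05, all higher, against 6.3%. Among the brightest probes only Dhcr7 separated all 4 pools from all 4, which 4.56% of all probes did in that direction.

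Without WT rosiglitazone replicate 1, a pool singled out after its values were seen, the same comparison gave 0.53 for Dhcr7 (SE 0.102, adjusted p = 0.083), 0.53 for Lss (SE 0.133, adjusted p = 0.128), 0.38 for Fdps (SE 0.123, adjusted p = 0.2) and 0.40 for the brighter Sqle probe (SE 0.124, adjusted p = 0.187). Insig1 was 0.30 (SE 0.095), 0.46 (SE 0.128) and 0.09 (SE 0.154) on its 3 probes, and the dimmer Sqle probe 0.33 (SE 0.082). So 9 of 9 member probes were above 0 with the pool and without it. In this fit 0 of 9 passed, against 123 of all probes (0.894%), 7 of 9 had an unadjusted p under 0.05, all higher (8.88%), and 51.8% of all probes were above 0. The remaining WT rosiglitazone pool was then assumed to vary like the other groups.

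**Figure D2:**
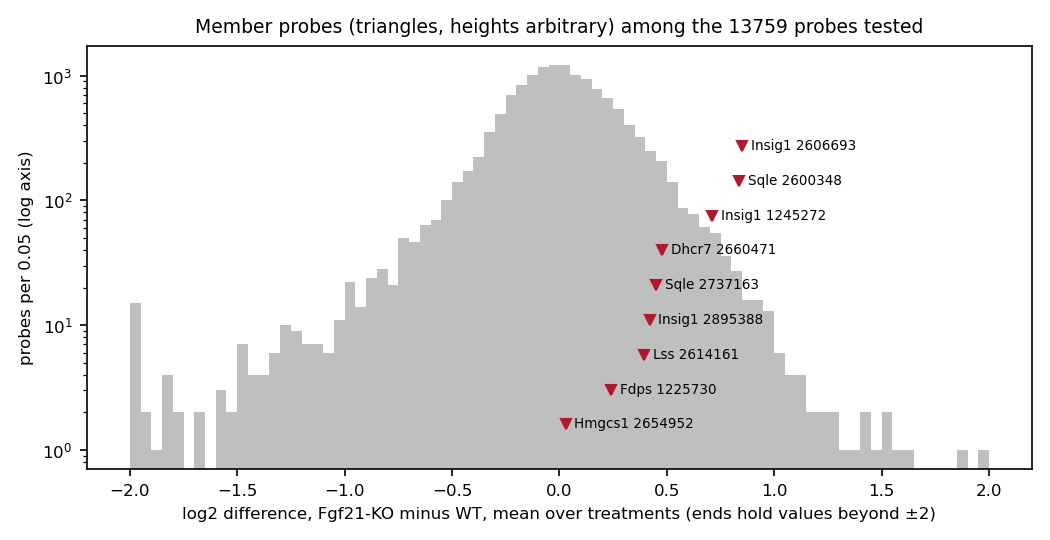
Distribution of the Fgf21-KO minus WT log2 difference, averaged over treatments, for all 13759 probes tested (grey bars, log count axis), with the 9 member probes as triangles whose heights carry no meaning. The members run from 0.03 for Hmgcs1 to 0.85 for one Insig1 probe, all above the median of all probes at 0, and many other probes lie as far out.

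Under rosiglitazone, the genotype difference for Dhcr7 was similar with and without the pool that stood apart, and that for Insig1 depended on it. Dhcr7 was 0.55 higher in Fgf21-KO than in WT (SE 0.151, limma, adjusted p = 0.227), and 0.64 (SE 0.158) without WT rosiglitazone replicate 1. Insig1 differed by 1.11 (SE 0.464, adjusted p = 0.314), 1.31 (SE 0.46) and 0.62 (SE 0.409) on its 3 probes, and by 0.30 (SE 0.148), 0.53 (SE 0.199) and -0.04 (SE 0.238) without that pool. The dimmer Sqle probe differed by 1.11 (SE 0.57), and by 0.09 (SE 0.126) without it. For Lss the value was 0.30 (SE 0.232), for the brighter Sqle probe 0.21 (SE 0.173), for Hmgcs1 0.06 (SE 0.133) and for Fdps 0.04 (SE 0.221); without the pool Lss was 0.58 (SE 0.206) and Fdps 0.31 (SE 0.19). Limma called 0 of 9 member probes and 0 of all probes (0%), and 3 of 9 had an unadjusted p under 0.05, all higher, against 7.75%. In 2 of 6 genes both Fgf21-KO pools lay above both WT pools, against 22.3% of all probes, and 6 of 6 were above 0, against 49%. Without the pool 8 of 9 member probes were above 0 (53.6% of all probes), 3 of 9 had an unadjusted p under 0.05 (7.36%) and 0 passed (0.436%). The comparisons under each treatment share no pools, but each shares its groups with the drug comparisons that follow.

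Between rosiglitazone and vehicle in Fgf21-KO fat the members' differences were within about their standard errors or little beyond. Insig1 differed by 0.40 (SE 0.464) and 0.50 (SE 0.46) on its 2 brighter probes and by 0.03 (SE 0.409) on the dimmest, Lss by 0.27 (SE 0.232), Dhcr7 by 0.21 (SE 0.151), Fdps by 0.14 (SE 0.221), Hmgcs1 by 0.01 (SE 0.133) and the brighter Sqle probe by -0.03 (SE 0.173). Of the 6 genes, 5 were above 0 (50.8% of all probes) and 3, Lss, Dhcr7 and Insig1, had both rosiglitazone pools above both vehicle pools, against 22.9% of all probes. The lowest adjusted p among the 9 member probes was 0.993 by limma, and 0 of all probes passed (0%). At an unadjusted p under 0.05 were 0 of 9, against 775 of the 13759 probes in either direction (2.83% of all probes, higher). Without WT rosiglitazone replicate 1 the values are the same with a smaller spread, and 2 of 9, both Insig1, had an unadjusted p under 0.05 (6.05%), with 0 passing.

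In WT fat, the largest differences between rosiglitazone and vehicle pools among the members' brightest probes were those of Fdps, Lss and Sqle. Fdps differed by 0.55 (SE 0.221, 1.46-fold, limma, adjusted p = 0.583), Lss by 0.45 (SE 0.232, adjusted p = 0.587) and the brighter Sqle probe by 0.44 (SE 0.173, adjusted p = 0.576), while Dhcr7 differed by 0.07 (SE 0.151) and Hmgcs1 by -0.05 (SE 0.133). Fdps and Sqle were the 2 of 6 genes with both rosiglitazone pools above both vehicle pools, against 17.6% of all probes. Limma called 0 of 9 member probes and 0 of all probes (0%), and 2 of 9 had an unadjusted p under 0.05, both higher, against 4.48%. Of the 6 genes 4 were above 0, against 52.2% of all probes.

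The Insig1 difference in WT fat changed sign with one pool. It was -0.41 (SE 0.464), -0.41 (SE 0.46) and -0.36 (SE 0.409) on the 3 probes with all pools, and 0.40 (SE 0.148), 0.37 (SE 0.199) and 0.30 (SE 0.238) without WT rosiglitazone replicate 1. The dimmer Sqle probe likewise gave -0.52 (SE 0.57) and then 0.50 (SE 0.126), next to 0.53 (SE 0.193) on the brighter probe in the same fit. Without that pool Fdps was 0.28 (SE 0.19), Lss 0.17 (SE 0.206) and Dhcr7 -0.03 (SE 0.158), and 0 of 9 member probes passed, against 1 of all probes (0.00727%). In that fit 7 of 9 were above 0 (46.6% of all probes) and 3 of 9 had an unadjusted p under 0.05 (3.9%).

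**Figure D3:**
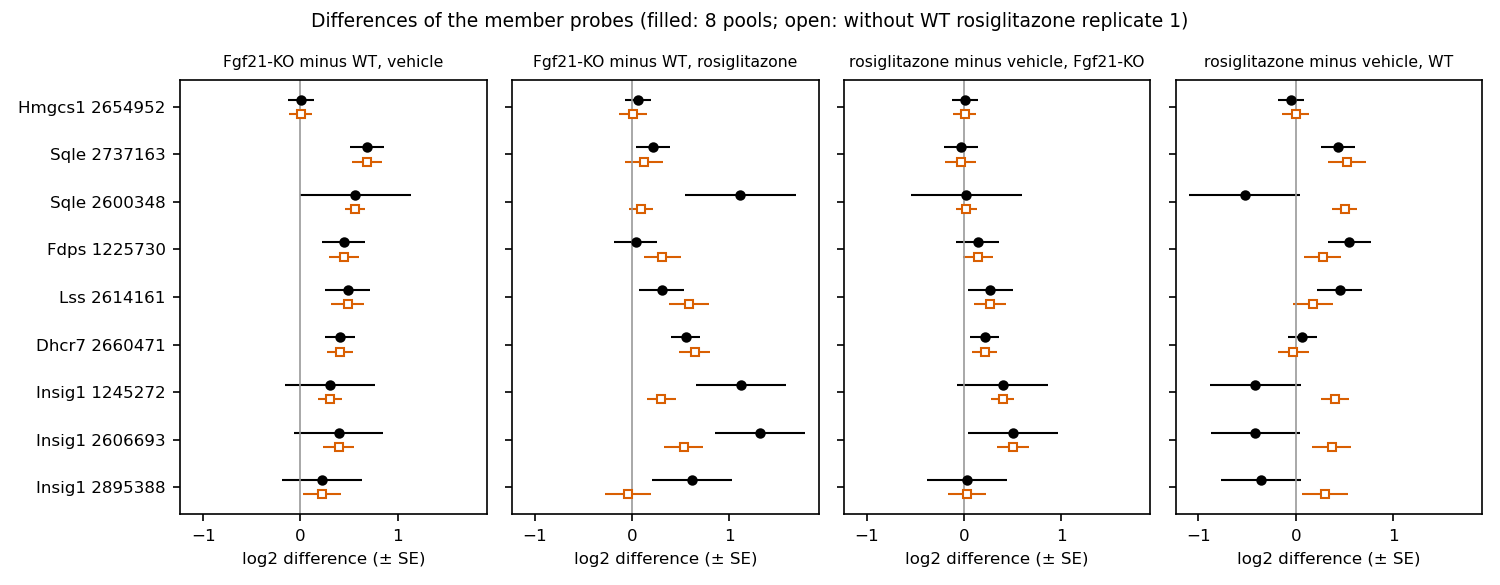
Log2 differences with standard errors of the 9 member probes in 4 comparisons, Fgf21-KO minus WT under vehicle and under rosiglitazone, and rosiglitazone minus vehicle in Fgf21-KO and in WT; filled circles use 8 pools and open squares leave out WT rosiglitazone replicate 1. Under vehicle the 2 fits give the same differences, while in the WT rosiglitazone panel Insig1 and the dimmer Sqle probe lie on opposite sides of 0 in the 2 fits.

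The response to rosiglitazone was also compared between genotypes. The interaction, Fgf21-KO response minus WT response, was -0.47 (SE 0.245) for the brighter Sqle probe, -0.41 (SE 0.312) for Fdps, -0.18 (SE 0.327) for Lss, 0.14 (SE 0.214) for Dhcr7, 0.06 (SE 0.188) for Hmgcs1 and 0.81 (SE 0.657) for the brightest Insig1 probe. Limma called 0 of 9 member probes (lowest adjusted p 0.827), and 0 of all probes passed (0%). At an unadjusted p under 0.05 were 0 of 9 member probes, against 681 of the 13759 probes in either direction (2.28% of all probes, higher). Of the 6 genes 3 were above 0, against 48.5%. Without WT rosiglitazone replicate 1 the Lss value was 0.095 (SE 0.265), that of Fdps -0.14 (SE 0.245) and that of Insig1 -0.006 (SE 0.191). That of the brighter Sqle probe was -0.56 (SE 0.249), that of the dimmer one -0.47, and 4 of 9 were above 0 (52.5% of all probes). Averaged over genotypes, rosiglitazone minus vehicle was 0.36 (SE 0.164) for Lss, 0.34 (SE 0.156) for Fdps and 0.20 (SE 0.122) for the brighter Sqle probe. By limma 0 of 9 member probes and 0 of all probes passed (0%). At an unadjusted p under 0.05 were 0 of 9, against 1204 of the 13759 probes in either direction (4.8% of all probes, higher). Of the 6 genes 4 were above 0 (50.5%), and 0 had all rosiglitazone pools above all vehicle pools (2.42%). In this average Insig1 ILMN_1245272 was -0.008 (SE 0.328), ILMN_2606693 0.04 (SE 0.325), ILMN_2895388 -0.16 (SE 0.289) and the dimmer Sqle probe -0.25 (SE 0.403). Leaving out WT rosiglitazone replicate 1 gave 0.40 (SE 0.095), 0.44 (SE 0.128), 0.17 (SE 0.154) and 0.26 (SE 0.082) in that order. Relative to their standard errors, ILMN_1245272, ILMN_2606693 and that Sqle probe were then the largest of the 9 member probes. Without the pool Lss was 0.22 (SE 0.133) and Fdps 0.21 (SE 0.123), 9 of 9 were above 0 (48.4%), 3 of 9 had an unadjusted p under 0.05 (5.9%) and 0 passed.

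The division within genes in WT rosiglitazone replicate 1 followed probes as well as genes. The dimmer Sqle probe was 1.95 below the mean of the other 7 pools and the brighter one 0.11 below (-1.95 and -0.11). Nsdhl, a demethylation enzyme between lanosterol and cholesterol, deviated by -2.2, -2.41 and -2.09 on 3 probes and by 0.31 on the fourth. Insig1 deviated on every kept probe, by -1.57, -1.62 and -1.19. Outside the pathway, Vldlr, a lipoprotein receptor, deviated by -1.44 and -1.21 on 2 probes and by -0.08, -0.05 and 0.07 on the other 3. Where these probes lie along their transcripts was not analysed here.

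**Figure D4:**
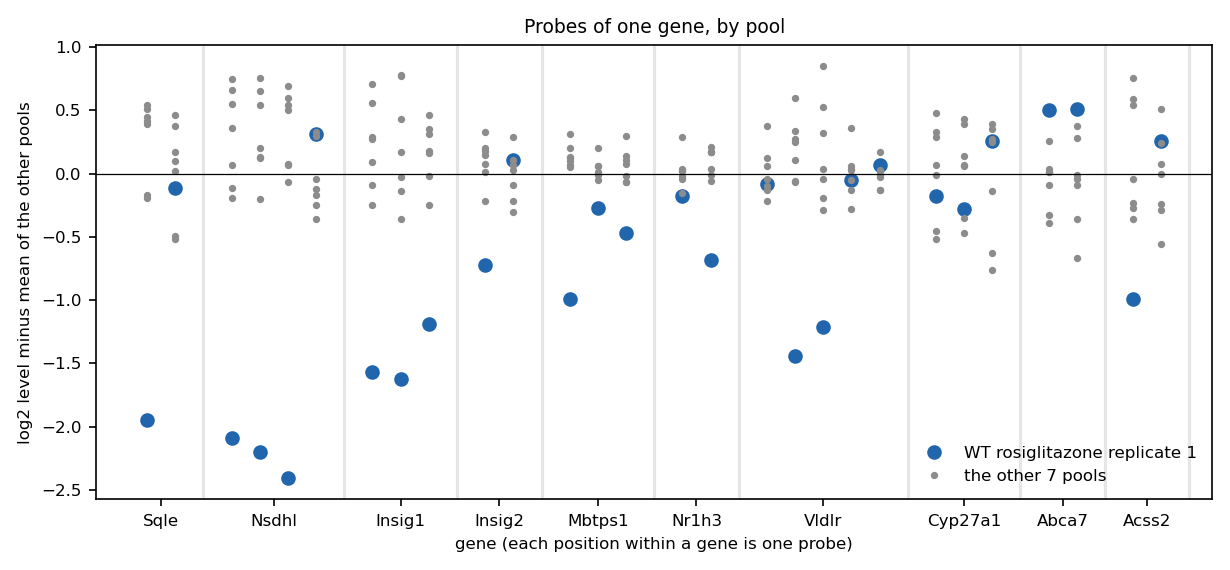
Deviation of each pool from the mean of the other 7 pools (log2) for every gene of the sterol and lipogenic lists with at least 2 kept probes, each position within a gene being one probe. In WT rosiglitazone replicate 1 (large circles) the probes of Sqle, Nsdhl, Vldlr and Acss2 part from each other, while the 3 Insig1 probes lie together between -1.62 and -1.19.

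The members' levels went together across pools to different degrees. Pearson's r of each gene with the mean of the other members over the 8 pools was 0.88 for Dhcr7, 0.78 for Sqle, 0.72 for Lss, 0.4 for Fdps, 0.36 for Insig1 and 0.01 for Hmgcs1. Over 7 pools, without WT rosiglitazone replicate 1, it was 0.96 for Lss, 0.88 for Insig1, 0.87 for Dhcr7, 0.78 for Fdps, 0.77 for Sqle and 0 for Hmgcs1. These are descriptions over pools that share genotype, treatment and array. Among 9537 other genes, those with profiles most like the standardized mean of the members over 8 pools were Paqr9 (r = 0.972), Kmt5a (0.96), L3mbtl4 (0.956), Hfe (0.954), Irf8 (0.948) and Lmna (0.942). Sterol genes came later in that order, Tmem97 at rank 135, Hsd17b7 at 151, Sc5d at 159 and Msmo1 at 216. Others were farther off, with Nsdhl at rank 1493, or opposite, with r of -0.283 for Tm7sf2, -0.396 for Scap, -0.65 for Cyp27a1, -0.748 for Ch25h and -0.804 for Apoe. Without the pool the 6 nearest were Pfkp, Rilpl2, Nipa2, Bola2, Prxl2b and Tmem98, at r of 0.978 to 0.988. Mvd then stood at rank 27, Sc5d at 104, Hsd17b7 at 301, Nsdhl at 344, Tmem97 at 470 and Msmo1 at 495.

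The rest of the synthesis route was counted in the same way. Of 22 enzymes listed from acetyl-CoA to cholesterol, 17 had a probe and 15 were tested. Under vehicle 14 of 15 were higher in Fgf21-KO than in WT fat, with a median of 0.41 and a range of -0.24 to 0.69, and 13 of 15 had no overlap of pools in that direction (all probes 20.4%). Averaged over treatments 14 of 15 were higher, with a median of 0.32, and 7 had an unadjusted p under 0.05, all higher (all probes 6.3%), while 0 of 15 passed the adjusted threshold. Leaving out the members, 9 of 10 were higher under vehicle, with a median of 0.33, and 9 of 10 on average, with a median of 0.29. The exception was Tm7sf2, a sterol reductase, at -0.24 under vehicle (SE 0.213), named after its values were seen. Its probe was near background, with group means of 5.38 to 5.87, next to levels of 5.14 to 5.51 on the Idi1 probe. Among the enzymes with a probe detected on all arrays, 14 of 14 were higher under vehicle. That filter drops only Tm7sf2, so this restates the 14 of 15, and Hmgcs1 counts as higher at 0.001.

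These directions depend in part on scaling. With median scaling in place of quantile normalization the median of all probes moved to -0.17 in the comparison under rosiglitazone and to -0.11 on average over treatments, with 3 of 6 and 5 of 6 members above 0. Of the 15 synthesis enzymes, 6 and 11 were then above 0, against 13 and 14 with quantile normalization, and their median on average over treatments was 0.15, against 0.32. Relative to that shift, 5 of 6 and 6 of 6 members, and 11 of 15 and 14 of 15 synthesis enzymes, lay above the median of all probes. Under vehicle 6 of 6 members and 14 of 15 enzymes were above 0 with either scaling.

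Single enzymes beyond the members were read pool by pool. Sc5d, which desaturates lathosterol, read 9.26 and 9.35 in Fgf21-KO rosiglitazone pools, 9.06 and 8.97 in Fgf21-KO vehicle pools, 9.11 and 8.84 in WT rosiglitazone pools, and 8.47 and 8.67 in WT vehicle pools. Its genotype difference averaged 0.39 (limma, adjusted p = 0.213). Msmo1, methylsterol monooxygenase, was 10.15 and 10 in Fgf21-KO rosiglitazone pools, 10.16 and 10.21 in Fgf21-KO vehicle pools, 10.01 and 9.91 in WT rosiglitazone pools, and 9.74 and 9.6 in WT vehicle pools. WT vehicle pools were the lowest for both genes. Mvd, mevalonate diphosphate decarboxylase, differed by 0.56 between genotypes under vehicle (adjusted p = 1) and by 0.54 between rosiglitazone and vehicle in WT fat (adjusted p = 0.587), a value of 0.24 without WT rosiglitazone replicate 1. Cyp51, lanosterol demethylase, differed by 0.53 between genotypes on average (adjusted p = 0.217) and had its lowest level, 8.11, in WT rosiglitazone replicate 1.

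**Figure D5:**
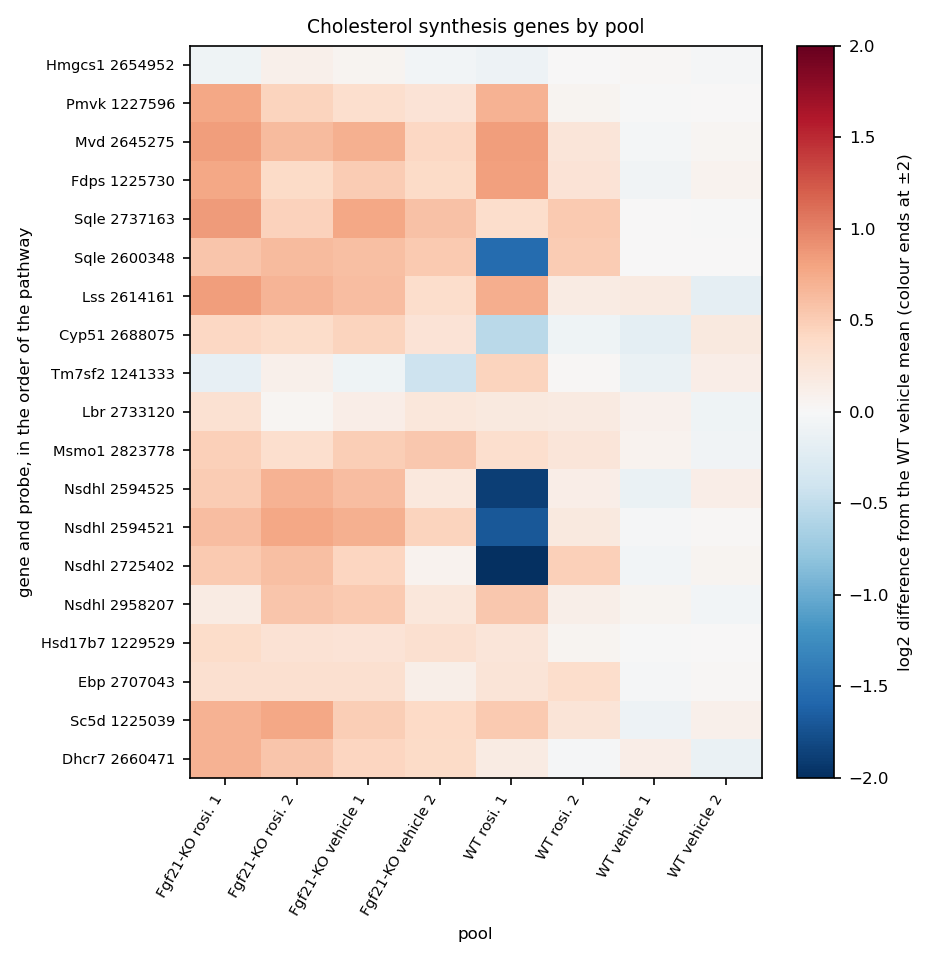
Log2 difference of each pool from the mean of the 2 WT vehicle pools for the 19 kept probes of 15 synthesis enzymes, in pathway order from top to bottom, with colour limits at ±2. Rows are mostly red in the 4 Fgf21-KO columns, with Hmgcs1 near white. Tm7sf2, near background, is blue in both Fgf21-KO vehicle columns, and WT rosiglitazone replicate 1 holds red and dark blue probes side by side.

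Genes of sterol sensing, Insig1 among them, were split between directions. Of 8 tested, 4 were higher and 4 lower in Fgf21-KO under vehicle, with a median of 0.006, and 0 passed or had an unadjusted p under 0.05 in that comparison. Srebf2, which encodes SREBP2, differed by 0.08 on average over treatments (adjusted p = 0.685), and Srebf1, which encodes the related factor of fatty acid synthesis, by 0.16 (adjusted p = 0.619). Pgrmc1, a heme-binding membrane protein, differed by -0.36, Mbtps1, the protease that first cuts SREBP, by 0.2, Insig2 by 0.006 and Nr1h3, which encodes the oxysterol receptor LXR alpha, by 0.14. With WT rosiglitazone replicate 1 left out these averages were -0.17 for Pgrmc1, -0.043 for Mbtps1, -0.19 for Insig2, 0.10 for Nr1h3, 0.067 for Srebf2 and 0.068 for Srebf1. Among 8 uptake and trafficking genes, 4 were higher and 4 lower under vehicle, with a median of 0.01. Tmem97, known as the sigma-2 receptor and a partner of NPC1, was 9.56 and 9.67 in Fgf21-KO rosiglitazone pools, 9.66 and 9.43 in Fgf21-KO vehicle pools, 9.06 and 8.9 in WT rosiglitazone pools, and 8.98 and 9.11 in WT vehicle pools. All 4 Fgf21-KO pools exceeded all 4 WT pools, and the difference averaged 0.57 (limma, adjusted p = 0.132). Npc2, a lysosomal sterol carrier, differed by 0.19 on average (adjusted p = 0.511).

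Efflux genes and SREBP1 targets were counted alongside. Of 8 efflux and esterification genes, 5 were higher and 3 lower in Fgf21-KO than in WT fat under vehicle. Ch25h, which makes an oxysterol, differed by -0.42 between genotypes on average (limma, adjusted p = 0.274). Its probe was dim, with group means of 5.38 to 6.09. Apoe differed by -0.28 (limma, adjusted p = 0.358). Cyp27a1, a mitochondrial sterol hydroxylase, differed by -0.16, -0.55 and -0.22 on its 3 probes and Abcg1, a sterol exporter, by 0.32. When WT rosiglitazone replicate 1 was left out, the averages were -0.36 for Ch25h, -0.25 for Apoe, -0.24, -0.55 and -0.28 for Cyp27a1 and 0.46 for Abcg1. Of 10 lipogenic genes, 7 were higher and 3 lower in Fgf21-KO than in WT fat under vehicle, and 5 were higher and 5 lower on average over treatments. Between rosiglitazone and vehicle 3 of 10 were higher in Fgf21-KO and 8 of 10 in WT fat, with 0 passing in limma's test. Scd1, stearoyl-CoA desaturase, was 15.27 and 15.2 in Fgf21-KO rosiglitazone pools, 15.62 and 15.59 in Fgf21-KO vehicle pools, 15.64 and 15.61 in WT rosiglitazone pools, and 15.65 and 15.7 in WT vehicle pools. Both Fgf21-KO rosiglitazone pools were below all others, at a difference of -0.37 from Fgf21-KO vehicle (adjusted p = 0.827).

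The authors' deposited table of comparisons lists 2 of the members. For Fdps it gives ratios of 1.126 for Fgf21-KO over WT, 1.074 for rosiglitazone over vehicle in Fgf21-KO and 1.694 in WT. In the same authors' deposited table Insig1 has 1.072, 1.323 and 0.947 for those ratios. The group means behind these ratios in the authors' deposited table closely match means of the signals before normalization between arrays. For Insig1 they match those of ILMN_2606693. Ratios of such means on ILMN_1245272 were 1.249 for rosiglitazone over vehicle in Fgf21-KO and 0.955 in WT. On ILMN_2895388 they were 0.994 and 0.946.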

How the data were processed

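RNA of epididymal fat was read on 16 single-colour Illumina bead arrays. Per the file headers, the deposited intensity of a probe is its mean bead signal, given with a detection p-value and a number of beads, before normalization between arrays. A second table of the authors gives normalized intensity, and the authors' deposited comparison table gives group means and their ratio. A further 64 columns of per-sample values were not used. The software behind the bead summaries and the genome build are not given in the sources used here. Groups and pools come from the sample titles.

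Background was removed by normexp from detection p-values (limma's nec, offset 16), followed by quantile normalization, the log2 transform and averaging of the 2 arrays of each pool (limma 3.58.1, R 4.3.3). A probe was tested if its detection p was at most 0.05 on 4 or more of 16 arrays, which left 13759 probes of 9543 genes. Symbols came from the platform annotation, with 23962 of 23978 updated by Entrez ID. A model of 4 group means gave 7 contrasts (lmFit and eBayes, 4 residual and 2.75 prior degrees of freedom), with two-sided p-values adjusted by Benjamini-Hochberg over all tested probes. They set each difference against the spread between pools of 2 mice, and having 2 pools per group limits the precision. The script was tested on simulated data. No array copied another. The deviations of pools sharing a replicate number correlated at r from -0.102 to 0.273 over all probes, and from -0.34 to 0.56 over the members, in 6 pairs of groups. Since r was not above 0.1 in every pair, the numbers were not used as pairs.

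The members and gene lists were chosen with earlier results of these data known. Named genes were the members, Fgf21, Srebf1, Srebf2 and, in each of the lists, the 4 others with the smallest F-test p-value over the groups, each gene by its brightest tested probe; some items are not reported here. Alternatives changed the background step, scaling, source of values, filter, array repeats, variance model, groups fitted and pools.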

Additional observations from a re-analysis of the deposited data

Results flagged for a closer look

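In 6 of 31 probes looked at (the members and the named genes, 19.4%) both rosiglitazone pools lay on one side of the mean of the vehicle pools in Fgf21-KO fat and both on the other side in WT fat. Among all 13759 probes 16.2% showed this pattern, and none of the 6 differences between responses passed limma's test (adjusted p = 0.827 for each). Elovl6, a fatty acid elongase, had a response of -0.87 in Fgf21-KO and 0.55 in WT fat, a difference of -1.41 on the log2 scale. Fads1, a fatty acid desaturase, had -0.57 in Fgf21-KO and 0.59 in WT, a difference of -1.17. For Acaca, acetyl-CoA carboxylase, the responses were -0.19 in Fgf21-KO and 0.31 in WT, a difference of -0.5. The synthesis enzyme Msmo1 had -0.11 in Fgf21-KO and 0.29 in WT, a difference of -0.4. In the opposite sense, Scarb1, the HDL receptor, had 0.59 in Fgf21-KO and -0.27 in WT, a difference of 0.87, and its WT rosiglitazone and vehicle pools overlapped. The probe of Mylip, a ubiquitin ligase induced by LXR, was detected on 0 arrays of the Fgf21-KO vehicle and WT rosiglitazone groups and on 1 array of each pool in the other groups, so its fitted difference of 0.96 is one between values at background. Without WT rosiglitazone replicate 1 the differences were -1.12 for Elovl6, -0.72 for Fads1, -0.32 for Acaca, -0.35 for Msmo1, 0.66 for Scarb1 and 0.76 for Mylip.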

How the results depend on the processing

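Of 1163 recomputed member differences, 55 changed sign, and the causes were not tested. Probe counts past the threshold, with all pools, were 0 in each comparison except 3 for genotype averaged over treatments. For that comparison they were 13 with offset 50, 6 without background correction, 26 with median scaling, 6 with the authors' deposited normalized table, 5 without a filter, 9 for probes detected on all arrays, 39 with trend and robust fitting, 535 with pool as a random block and 0 with the replicate block. For genotype under vehicle the counts were 2 with offset 50, 3 without background correction, 3 with the authors' table, 2 for probes detected on all arrays, 3 with trend and robust fitting and 41 with the random block. Under rosiglitazone they were 5, 1, 1, 1, 13 and 666 in those settings, 57 with median scaling and 2 with only the groups compared. For rosiglitazone in WT they were 1, 2, 2, 1, 2 and 61, and 1 with median scaling. The random block alone moved the others, to 13 for rosiglitazone in Fgf21-KO, 22 for the interaction and 20 for rosiglitazone averaged over genotypes. The replicate block left the other counts at 0, and 0 member probes passed with it.

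Leaving out one pool at a time gave 0 to 2755 probes for genotype on average, 0 to 3391 under rosiglitazone, 0 to 2702 for rosiglitazone in WT, 0 to 1702 for the interaction and 0 to 1836 for rosiglitazone on average. The highest count came each time without WT rosiglitazone replicate 2, which leaves replicate 1 alone in its group. The WT drug difference was then 0.821 for Fdps, -1.545 for the dimmer Sqle probe and -1.23, -1.2 and -1.015 for the 3 Insig1 probes. For genotype under rosiglitazone it was 2.135 on the dimmer Sqle probe and 1.931, 2.096 and 1.272 on the 3 Insig1 probes. Member probes past the threshold in those fits are not counted here, since a group then holds a single pool. The fits without WT rosiglitazone replicate 1 also leave a single pool in that group. Their counts given above carry the same limit. Among the other settings member probes passed only with pool as a random block, at adjusted p = 0.0354 for Insig1 ILMN_2606693 under rosiglitazone, 0.0425 for Sqle ILMN_2737163 and 0.038 for Dhcr7 for genotype on average, by limma.

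The members' median moved for genotype on average to 0.293 without background correction, 0.263 with median scaling, 0.294 with the authors' table and 0.544 with first arrays. Under vehicle it was 0.333 without background correction and 0.334 with the authors' table, and 0.29 to 0.464 with one pool left out. Under rosiglitazone it was 0.033 with median scaling, 0.455 with first arrays, 0.426 with the mean of a gene's probes and 0.187 to 0.394 with one pool left out. For rosiglitazone it was 0.074 in Fgf21-KO with median scaling (0.112 to 0.306 with one pool out), 0.014 in WT with the mean of probes (0.105 to 0.323) and 0.06 on average with the mean of probes. For the interaction it was -0.179 with median scaling, 0.048 with the mean of probes and -0.165 to 0.044 with one pool out.

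Sign changes with median scaling were, for Fgf21-KO minus WT, Hmgcs1 at -0.007 on average and -0.021 under rosiglitazone, Fdps at -0.235 and the brighter Sqle probe at 0 under rosiglitazone. For rosiglitazone in Fgf21-KO they were Hmgcs1 at -0.108, Insig1 ILMN_2895388 at -0.058 and Sqle ILMN_2600348 at -0.067, for the interaction Hmgcs1 at -0.029, and for rosiglitazone on average Insig1 ILMN_2606693 at -0.022. With first arrays they were Hmgcs1 at -0.056 and the brighter Sqle probe at 0.131 for rosiglitazone in Fgf21-KO, Hmgcs1 at -0.003 for the interaction, and Insig1 ILMN_1245272 at 0.027 for rosiglitazone on average, a value of 0.001 with offset 50, 0.018 without background correction and 0.017 with the authors' table. With one pool left out, ranges that crossed 0 for Fgf21-KO minus WT were -0.014 to 0.074 (Hmgcs1 on average), -0.047 to 0.05 (Hmgcs1, vehicle), -0.03 to 0.147 (Hmgcs1, rosiglitazone), -0.235 to 0.308 (Fdps, rosiglitazone) and -0.041 to 1.272 (Insig1 ILMN_2895388, rosiglitazone). For rosiglitazone in Fgf21-KO they were -0.052 to 0.332 (Fdps), -0.081 to 0.096 (Hmgcs1), -0.173 to 0.24 (Insig1 ILMN_2895388), -0.015 to 0.068 (Sqle ILMN_2600348) and -0.228 to 0.161 (Sqle ILMN_2737163). In WT they were -0.06 to 0.199 (Dhcr7), -1.23 to 0.403, -1.2 to 0.369 and -1.015 to 0.298 (Insig1 ILMN_1245272, ILMN_2606693 and ILMN_2895388) and -1.545 to 0.502 (Sqle ILMN_2600348). For the interaction they were -0.032 to 0.145 (Hmgcs1), -0.006 to 1.627 and -0.264 to 1.049 (Insig1 ILMN_1245272 and ILMN_2895388), -0.463 to 0.095 (Lss) and -0.475 to 1.571 (Sqle ILMN_2600348). For rosiglitazone on average they were -0.066 to 0.023 (Hmgcs1), -0.416 to 0.4, -0.348 to 0.436 and -0.491 to 0.166 (the Insig1 probes in the same order) and -0.759 to 0.264 (Sqle ILMN_2600348). Signal over background limited Idi1 and one Insig1 probe, which could not be tested, and Dhcr7, whose signals of 242 to 342 compare with array medians of 144.9 to 192.3.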
